A study of Mus musculus with 72 samples.

Results

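The enzymes described here pass electrons to ubiquinone from outside the main respiratory entry points, and 8 genes encode them or their partner proteins out of 18193 genes named on the array. They were Etfdh, Etfa, Etfb, Gpd2, Dhodh, Chdh, Prodh and Sqor, taken as every probe set whose platform symbol was one of these names or an older alias (Sqrdl for Sqor). They came to 14 probe sets. Gpd2 had 4 (1417434_at, 1428323_at, 1428324_at and 1452741_s_at), Etfdh 2 (1451084_at and the dim 1458152_at), Dhodh 2 (1417581_at and 1417582_s_at) and Sqor 2 (1420641_a_at and the dim 1430998_at). Etfa (1423972_at), Etfb (1428181_at), Chdh (1455435_s_at) and Prodh (1417629_at) had 1 each, and a gene stands by its brightest tested probe set unless another is named. Total RNA of female SAMP1 mice, a strain prone to accelerated senescence, was measured on 72 Affymetrix arrays, 18 for each of liver, kidney, heart and brain. The mice ate QH2 (the reduced form of coenzyme Q10), Q10 (the oxidised form) or a control diet from 4 weeks of age. Intake was 500 mg of either compound per kg of body weight a day, for 6 or 14 months, and the mice were 7 or 15 months old when killed. Each of the 24 groups held 3 arrays. Every group carried the SAMP1 background, no other strain was measured, and mice stayed in the same cages of 3 to 6 throughout, so cage and diet may coincide.

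Ubiquinone is the mobile carrier of the inner mitochondrial membrane that collects electrons and hands them to complex III. Complexes I and II are its best known sources, but several flavoproteins reduce it directly. Electron transfer flavoprotein, a dimer of the Etfa and Etfb products, takes electrons from the acyl-CoA dehydrogenases of fatty acid and amino acid breakdown, and the Etfdh product passes them on to ubiquinone. Gpd2 is the mitochondrial arm of the glycerol phosphate shuttle, Dhodh makes orotate for pyrimidine synthesis, Chdh oxidises choline on the way to betaine, Prodh opens proline breakdown and Sqor oxidises hydrogen sulfide.

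The promoters of the flavoprotein pathway genes are shown because Etfdh, Etfa and Etfb had the most similar signal patterns of all pairs of members over the tissues. The windows run from 250 bases before to 50 after the annotated start, from RefSeq on GRCm38.p6. Capitals mark the motif of nuclear respiratory factor 1, a regulator of many mitochondrial genes, searched as GCGC, any 2 bases and GCGC again, a pattern that is its own reverse complement and so covers both strands.
Etfdh, chr3:79628718-79629017, minus strand: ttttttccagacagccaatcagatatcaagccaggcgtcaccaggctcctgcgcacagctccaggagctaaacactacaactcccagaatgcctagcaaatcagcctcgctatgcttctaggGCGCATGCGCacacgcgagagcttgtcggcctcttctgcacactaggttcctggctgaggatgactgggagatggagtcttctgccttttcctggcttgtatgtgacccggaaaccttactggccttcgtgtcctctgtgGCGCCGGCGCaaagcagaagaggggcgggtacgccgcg
Etfb, chr7:43443822-43444121, plus strand: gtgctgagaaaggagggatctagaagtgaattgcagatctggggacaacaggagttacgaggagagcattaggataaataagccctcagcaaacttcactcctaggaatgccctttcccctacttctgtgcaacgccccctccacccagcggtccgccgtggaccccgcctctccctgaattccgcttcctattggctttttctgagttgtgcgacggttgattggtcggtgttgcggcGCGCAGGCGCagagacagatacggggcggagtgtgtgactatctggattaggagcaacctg
Etfa, chr9:55512194-55512493, minus strand: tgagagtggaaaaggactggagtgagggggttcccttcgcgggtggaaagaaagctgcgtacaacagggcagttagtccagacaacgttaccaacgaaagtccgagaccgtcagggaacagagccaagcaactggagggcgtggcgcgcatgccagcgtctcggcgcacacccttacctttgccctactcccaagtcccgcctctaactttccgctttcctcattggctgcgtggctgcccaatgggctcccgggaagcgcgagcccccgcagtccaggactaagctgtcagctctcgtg
Etfdh held 2 copies, GCGCATGCGC beginning 128 bases before the start and GCGCCGGCGC beginning 12 bases after it. Etfb held 1, GCGCAGGCGC, beginning 11 bases before the start. Of the 10 windows found for 7 members, these 2 held the motif, against 6.225% of 32851 mouse windows of the same length. The letters were not in the windows of Etfa, Gpd2, Chdh, Prodh or Sqor. Dhodh had no entry in the table.

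Array signals had been deposited as linear intensities that differed in overall level between arrays, so they were normalised to one distribution, within a tissue for diet and duration and over all 72 arrays for tissue levels. Signals below are on those 2 scales, and a log2 difference is of log2(signal + 1) with its standard error (SE) from limma. A probe set was called at an adjusted p under 0.05 over the 27022 tested in each fit. The tissue labels fitted the arrays. The liver markers (7 of 7 measured, Alb among them) summed to at least 61863 in liver and at most 1699 elsewhere. The sums of kidney, heart and brain markers were at least 23447, 49045 and 28490 in their own tissue and at most 94.8, 585 and 307 in any other. In bulk tissue fewer cells of a type and less RNA per cell cannot be told apart.

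The flavoprotein pathway was strongest in heart and weakest in brain. Etfdh averaged 1285 ± 263 in liver and 786 ± 146 in kidney, with 3132 ± 243 in heart and 144 ± 15.9 in brain (SD, n = 18 each). Its order of heart, liver, kidney and brain had overlap between neighbours only for liver and kidney. Etfa averaged 2315 ± 377, 1859 ± 273, 3841 ± 221 and 238 ± 56.1 in the same order of tissues. Etfb averaged 4410.0 ± 228 in heart, 3765 ± 286 in kidney, 3009 ± 408 in liver and 274 ± 30.0 in brain, so kidney came above liver here. Heart exceeded brain by 4.44 ± 0.048 for Etfdh, 4.04 ± 0.046 for Etfa and 4.01 ± 0.040 for Etfb on the log2 scale (SE), with no overlap between the 18 arrays of each tissue.

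Sqor was highest in liver, and Prodh was high in liver and kidney. Sqor averaged 2043 ± 428 in liver, against 575 ± 63.1 in kidney, 483 ± 42.8 in heart and 57.9 ± 16.3 in brain. Liver exceeded kidney by 1.80 ± 0.055 on the log2 scale without overlap, while kidney and heart overlapped (0.25 ± 0.055, adjusted p = 5.88e-05). Prodh averaged 1159 ± 304 in liver and 1037 ± 154 in kidney, with 142 ± 30.2 in heart and 80.7 ± 15.4 in brain. Liver and kidney did not differ beyond their spread (0.12 ± 0.086, adjusted p = 0.23).

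Chdh was high in liver and kidney and low in brain and heart. It averaged 1133 ± 142 in liver and 1450.2 ± 171 in kidney, a difference of -0.36 ± 0.24 that was not called (adjusted p = 0.19). That SE is shared with the heart arrays, whose log2 signals had an SD of 1.31, against 0.17 in liver and 0.18 in kidney. The difference was called in 2 of 12 other settings, on the signals as deposited and with 16 added in place of 1 (adjusted p down to 0.000584), so the order of liver and kidney is not settled. In brain it averaged 43.4 ± 10.5. In heart its signal ran from 0.708 to 25.1 with a mean log2 value under the filter used within that tissue. It was tested in the fit of all 72 arrays, but no fold is given for so dim a signal.

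Gpd2 ran the other way to the flavoprotein genes, with brain highest and heart lowest. Its brightest probe set averaged 583 ± 68.7 in brain, 476 ± 69.8 in liver, 370.0 ± 106 in kidney and 97.9 ± 18.5 in heart. Heart lay below brain by 2.58 on the log2 scale on that probe set and by 2.55 and 2.14 on the next brightest pair. The order of liver and kidney was not settled, since liver was higher by 0.40 and 0.75 on 2 Gpd2 probe sets and lower by 0.54 on 1428323_at. Against brain, liver was lower by 0.30 on the brightest probe set and higher by 0.51 on 1452741_s_at.

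Dhodh varied least between tissues. It averaged 101 ± 12.2 in heart, 69.2 ± 7.97 in kidney, 66.3 ± 7.73 in brain and 65.8 ± 14.3 in liver. Heart was above brain by 0.59 ± 0.073 (SE, adjusted p = 1.12e-10), but by -0.39 on the signals as deposited. Liver, kidney and brain did not differ by the test on this probe set (adjusted p = 0.233 to 0.639), while the second, 1417581_at, called kidney above both liver and brain (adjusted p = 0.026 and 0.040). Each of these 3 pairs was called in 2 of 12 other settings. The lowest values there were -1.66 for liver against brain, -1.09 for liver against kidney and -0.57 for kidney against brain.

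**Figure D1:**
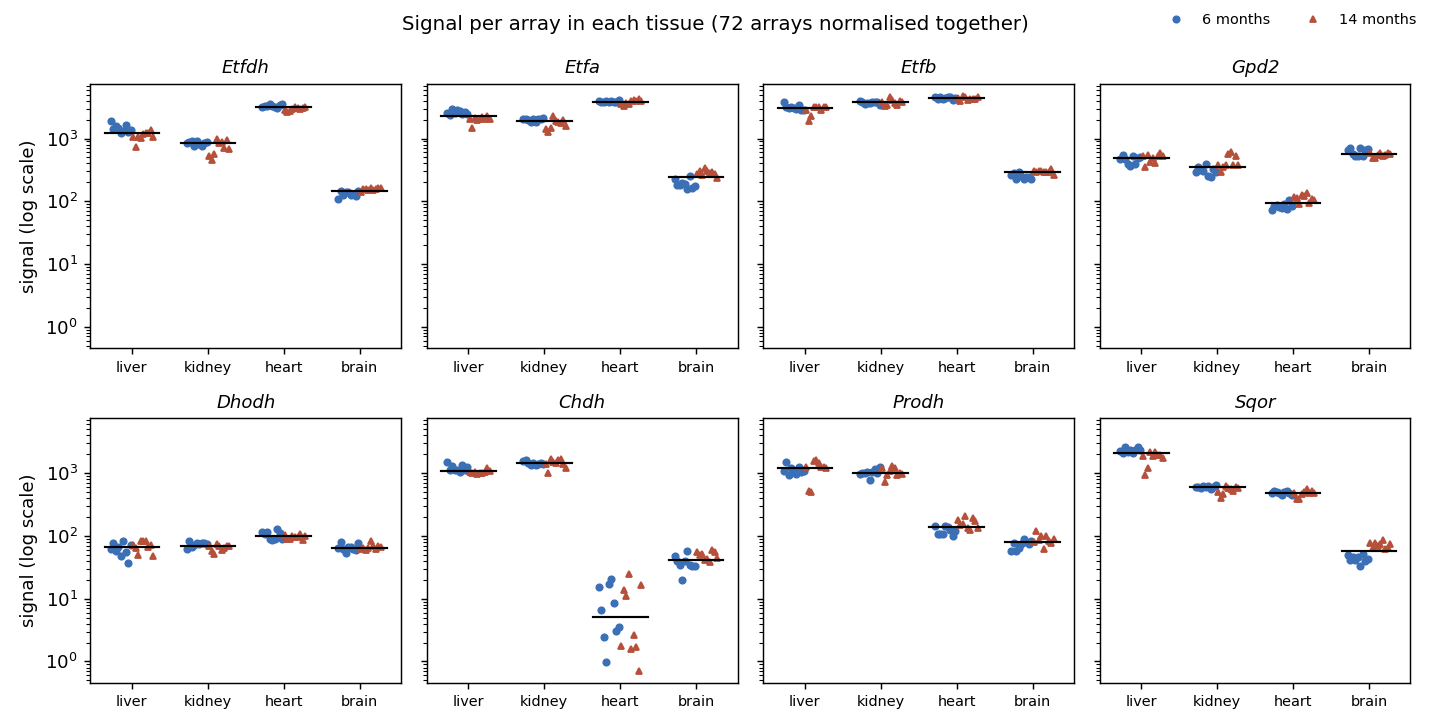
Signal of each member on each of the 72 arrays (log scale), normalised together, by tissue; circles are 6 months, triangles 14 months, and the line is the median of 18 arrays. Etfdh, Etfa and Etfb were highest in heart and lowest in brain, Gpd2 was lowest in heart, and Chdh ran from 0.708 to 25.1 in heart.

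All 8 members were called between liver and heart, kidney and heart, and heart and brain, 7 between liver and brain and between kidney and brain, and 5 between liver and kidney. Of all probe sets tested, 80.7%, 78%, 84.8%, 84.1%, 79.7% and 71% were called in these pairs, in the order given, so these counts are close to the background. On the signals as deposited, or with every array scaled to one trimmed mean, the order of liver and kidney turned for Etfa, Etfb, Gpd2 or Prodh, so that order is uncertain for them.

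Over the 24 group means, Etfdh correlated with Etfa at r = 0.97 and with Etfb at r = 0.91, and Etfa with Etfb at r = 0.97. Chdh and Prodh stood at r = 0.88, and Etfdh and Gpd2 at r = -0.77. These are descriptions of 4 tissues with 6 groups each, and the groups of a tissue share its level. The genes most like Etfb were Cpt2 (r = 0.997), Suclg2 and Acadm (r = 0.994 each). Cpt2 takes part in the import of long-chain fatty acids into the matrix, Suclg2 is a subunit of succinyl-CoA ligase and Acadm is the medium-chain acyl-CoA dehydrogenase. Those most like Etfdh were Gsto1, Hadha and Zfp568 (r = 0.996, 0.993 and 0.990), and those most like Etfa were Yif1a, Afg3l1 and Echs1 (r = 0.995, 0.994 and 0.993). Hadha and Echs1 are fatty acid beta-oxidation enzymes. Prodh was followed by Idh1, Mthfd1 and Slc44a3 (r = 0.994, 0.993 and 0.992), and Sqor by Gchfr, Rdx and Tmem38b (r = 0.996, 0.995 and 0.994). Chdh was followed by Slc9a3r1, Rida and Grb7 (r = 0.995, 0.992 and 0.991). For Gpd2 they were Alcam, Fam8a1 and Mal2 (r = 0.979, 0.972 and 0.971), and for Dhodh, with the loosest match, Qk, Ttll12 and Use1 (r = 0.926, 0.923 and 0.922).

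After 6 months no member was called for either compound in any tissue. Of 31 member and tissue combinations tested, 0 were called by limma for QH2 against control, Q10 against control or QH2 against Q10, with 0, 0 and 1 at an unadjusted p under 0.05. The log2 differences lay between -0.27 and 0.27 for QH2 against control and between -0.27 and 0.46 for Q10 against control. Of all probe sets 0.807% were called for Q10 against control and 0.988% for QH2 against Q10 in liver, 0.192% for QH2 against control and 0.3% for QH2 against Q10 in kidney, 0.0666% for QH2 against Q10 in heart, and 0% in the others. Groups of 3 arrays could miss moderate changes. The 95% interval of a typical probe set reached 0.69 to either side in liver, 0.54 in heart, 0.46 in kidney and 0.35 in brain.

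After 14 months Q10 and QH2 differed in liver and kidney. In liver the mitochondrial proline and sulfide oxidisers, Prodh and Sqor, were higher on QH2 than on Q10. In kidney the ubiquinone reductase of the flavoprotein pathway, Etfdh, was higher on QH2 together with Etfa and Sqor. No member was called in heart or brain, and no member was called for QH2 against control in any of the 4 tissues (0 of 31 at an unadjusted p under 0.05). Of all probe sets, 0% were called for QH2 against control in liver, kidney and heart, and 0.0111% in brain. For Q10 against control and QH2 against Q10, 0% were called in heart and brain. The Q10 arrays are shared by the comparisons with control and with QH2, and the control arrays by both compounds.

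In kidney, Etfdh signal was 1052, 905 and 945 on QH2, 560.1, 490.0 and 608 on Q10, and 763, 1017 and 738 on the control diet. All Q10 kidneys lay below all others, and QH2 and control kidneys overlapped. QH2 exceeded Q10 by 0.81 ± 0.12 on the log2 scale (SE, adjusted p = 0.00145), a 1.75-fold difference. Q10 fell below control by 0.59 ± 0.12 (SE, adjusted p = 0.0267, 1.51-fold), with 553 ± 59.3 on Q10 against 839 ± 154 on control (SD, n = 3 each). That call was lost without control replicate 2 (adjusted p = 0.209), without Q10 replicate 2 (0.103) or without the 2 kidney arrays of extreme Actb ratio (0.0893). QH2 stood 0.22 ± 0.12 above control, which was not called (adjusted p = 0.872).

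At 6 months the same gene gave 809.9, 996 and 900.2 on QH2, 922, 938 and 982 on Q10, and 819, 919 and 955 on control. The groups overlapped. The Q10 effect at 14 months minus that at 6 months was -0.67 ± 0.17 on the log2 scale, with an adjusted p of 0.378 by limma, so a difference between the durations was not called. No member was called for this difference or for the mean of the durations, of either compound, in any tissue. The count at an unadjusted p under 0.05 was 7 of 31 for the Q10 difference, 2 for that of QH2, 7 for the Q10 mean and 1 for the QH2 mean. Of all 27022 probe sets, 4504, 1916, 1824 and 1341 met that unadjusted threshold for the Q10 difference in liver, kidney, heart and brain. In the same order the Q10 mean had 4317, 2559, 2294 and 1661. The QH2 difference had 1628, 2367, 1966 and 1711, and the QH2 mean 1907, 1838, 1358 and 1881. Of all probe sets, 2.31% were called for the Q10 difference in liver and 0.0074% in kidney, 0.0296% for the QH2 difference in brain, and 0.833% and 0.0259% for the Q10 mean in liver and kidney, with 0% elsewhere.

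Etfa, a subunit of the protein that delivers electrons to the Etfdh product, gave 2453, 2050.5 and 1999.8 on QH2, 1538, 1363 and 1589 on Q10, and 1943, 2156 and 1705 on control in kidney. Here too every Q10 kidney was below every other. QH2 exceeded Q10 by 0.53 ± 0.09 (SE, adjusted p = 0.00429, 1.45-fold). Q10 against control came to -0.37 ± 0.09 and missed the threshold (adjusted p = 0.0812). Etfb, the other subunit, gave 4618, 4195 and 3850.3 on QH2, 3896, 3399 and 3573 on Q10, and 3622, 4109.9 and 4019 on control. Its groups overlapped, and QH2 against Q10 (0.22 ± 0.08, adjusted p = 0.095) was not called.

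Sqor in kidney was 678, 613 and 606 on QH2, 538, 434 and 497 on Q10, and 557, 641 and 633 on control. QH2 exceeded Q10 by 0.37 ± 0.09 without overlap (SE, adjusted p = 0.0241, 1.29-fold), and the call was lost without Q10 replicate 2 or 3, or QH2 replicate 1 (adjusted p = 0.116, 0.0507 and 0.0909). Gpd2 in kidney gave 399, 616 and 665 on QH2, 406, 316 and 381 on Q10, and 408, 568 and 398 on control, with 0.58 ± 0.20 for QH2 against Q10 (adjusted p = 0.086). All 8 members were positive for QH2 against Q10 in kidney, with a median of 0.37 against 0.045 over all probe sets, of which 45.0% were negative. The members were measured on the same arrays, so their signs are not independent. The 3 called higher stand beside 5.96% of probe sets called, 3.95% higher, and the 1 called lower for Q10 against control beside 0.666%, 0.559% lower.

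**Figure D2:**
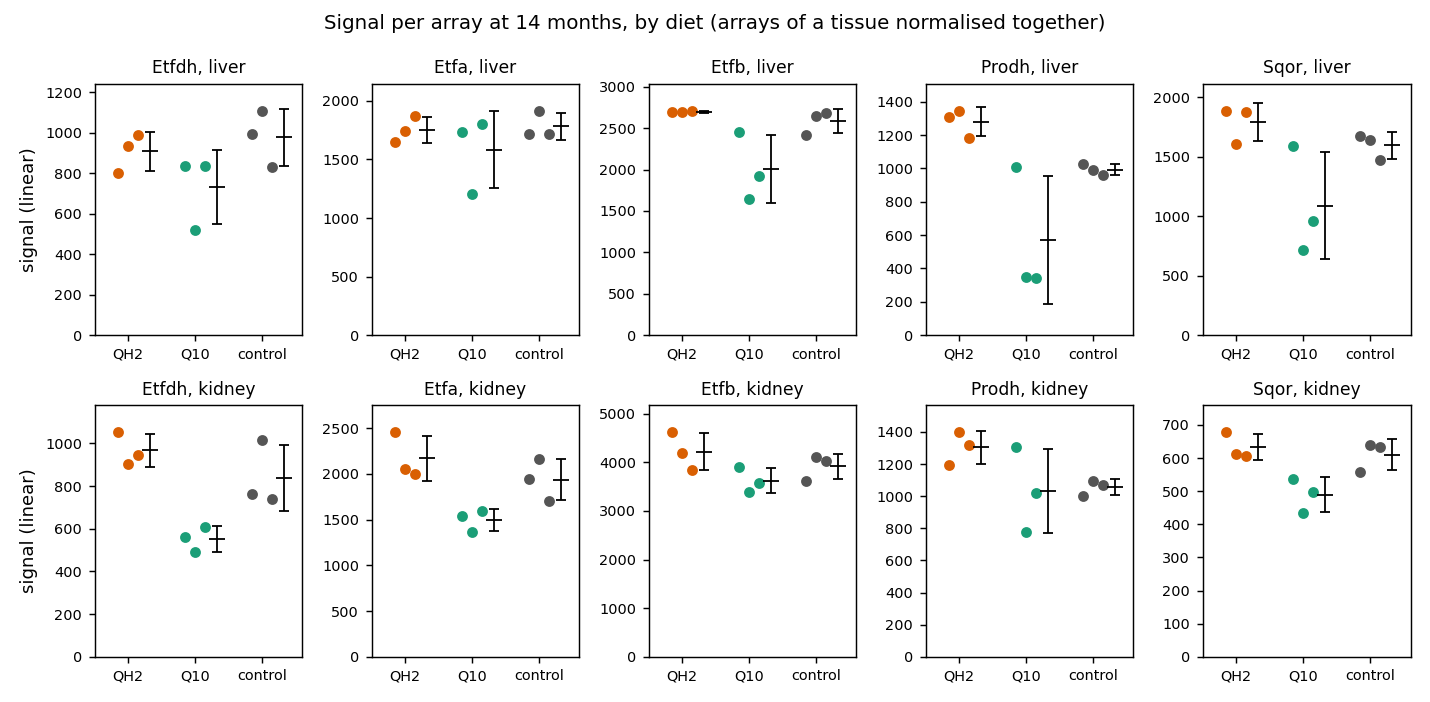
Signal of 5 members on each array at 14 months in liver (top) and kidney (bottom), linear scale, by diet; points are arrays and the bar beside them is the mean ± SD of 3. In kidney Etfdh and Etfa on Q10 lay below both other diets on every array; in liver 2 Q10 arrays held Prodh signals of 349 and 344 and the other 1011.

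In liver, Prodh signal was 1309.6, 1347 and 1184 on QH2, 1011, 349 and 344 on Q10, and 1025, 993 and 959 on control. The Q10 livers of replicates 2 and 3 were low, and replicate 1 lay within the controls. Every QH2 liver lay above every control, though QH2 against control was not called. QH2 exceeded Q10 by 1.37 ± 0.29 (SE, adjusted p = 0.00751, 2.58-fold) without overlap. Q10 fell below control by 1.00 ± 0.29 (SE, adjusted p = 0.0471), with 568 ± 383 on Q10 against 992 ± 32.8 on control (SD, n = 3 each) and overlap. Without Q10 replicates 2 and 3, which earlier results of these data had set apart and which hold the lowest Prodh signals, these differences were 0.34 and 0.027. That leaves 1 Q10 array, so they are given as values with no test. Leaving out single arrays of the Q10 group, the call against control was lost without replicate 2 or 3 (adjusted p = 0.262 and 0.212), and it was lost without any 1 control array (0.109 to 0.134). The call between compounds was lost without Q10 replicate 3 (0.0506).

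Sqor in liver gave 1889, 1606 and 1878 on QH2, 1591, 714 and 961 on Q10, and 1677, 1641 and 1469 on control. The same 2 Q10 livers were lowest. QH2 exceeded Q10 by 0.79 ± 0.20 (SE, adjusted p = 0.0172, 1.73-fold), and the call was lost without Q10 replicate 2 or 3 or QH2 replicate 1 or 3 (adjusted p = 0.0669 to 0.0914). Q10 against control was -0.63 ± 0.20 (adjusted p = 0.0635). Etfb in liver was 2694, 2689.6 and 2712 on QH2, 2449, 1638 and 1922 on Q10, and 2422, 2647 and 2683 on control, with 0.45 ± 0.14 for QH2 against Q10 (adjusted p = 0.0535). The median of the 8 members was 0.40 for QH2 against Q10, against 0.083 over all probe sets, of which 9.6% were called, 4.78% higher. For Q10 against control it was -0.33 against -0.098, with 5.98% called, 2.26% lower. In a fit of only the groups compared, and on the signals as deposited, no member was called at 14 months in liver or kidney.

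The Actb ratio and immune cell markers moved with these liver values. The Actb 3' to 5' signal ratio, a common measure of RNA quality, was 7.36, 3.67 and 5.01 on QH2, 3.05, 1.59 and 1.98 on Q10, and 3.49, 3.88 and 4.11 on control in liver at 14 months. Every Q10 liver had a lower ratio than every other liver of that duration. The ratio and the Q10 diet therefore cannot be told apart there, with or without a covariate. With that ratio as a covariate Prodh came to 0.40 for QH2 against Q10 (adjusted p = 1.00) and Sqor to 0.074, and no probe set of 27022 was called in liver for either comparison. The summed signal of 10 macrophage markers, such as Csf1r and Adgre1, ran from 1106 to 1828 on QH2, from 4861 to 16600 on Q10 and from 852 to 1870 on control. The 6 lymphocyte markers tested summed to 143 to 218, 428 to 3945 and 111 to 177 in the same diets. Liver markers ran from 67404 to 69760.0 on QH2, 64396 to 68008 on Q10 and 67769 to 68542 on control, a sum carried by the brightest. Among them only Tat, a tyrosine breakdown enzyme, was called between the compounds. It was higher on QH2 than on Q10 (2861 against 1647, 0.78 on the log2 scale, adjusted p = 0.034). The 3 blood markers tested summed to 137 to 169 on QH2, 202 to 549.6 on Q10 and 106 to 199.8 on control, and Slc4a1 was called between the compounds (-2.46). The part of these cells, and of hepatocytes, in the Prodh and Sqor differences was not tested.

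In kidney the ratio was 2.05, 3.37 and 2.47 on QH2, 3.22, 1.64 and 2.37 on Q10, and 2.25, 2.48 and 2.10 on control. As a covariate it left Etfdh at 0.79 for QH2 against Q10 (adjusted p = 0.00187), Etfa at 0.52 (0.00491) and Sqor at 0.35 (0.0273). Macrophage markers summed to 2077 to 2682 on QH2, 2908 to 9474 on Q10 and 2131 to 3952 on control, all 10 tested. The 3 adipocyte markers tested summed to 7699 to 9137, 655 to 5049 and 1770.3 to 7749, and the 6 kidney markers to 23502 to 29375, 23149 to 27278 and 24367 to 25905. Slc34a1, the phosphate carrier of the proximal tubule, was the only kidney marker called. It went in the same direction as Etfdh, at 0.38 for QH2 against Q10 (adjusted p = 0.0107) and -0.36 for Q10 against control (adjusted p = 0.0448). The 7 lymphocyte markers tested summed to 351 to 653 on QH2, 524 to 5650.1 on Q10 and 601 to 2052 on control, with Ms4a1 called at -2.76 for QH2 against Q10. The part of tubule and other cells in the kidney differences was not tested either.

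**Figure D3:**
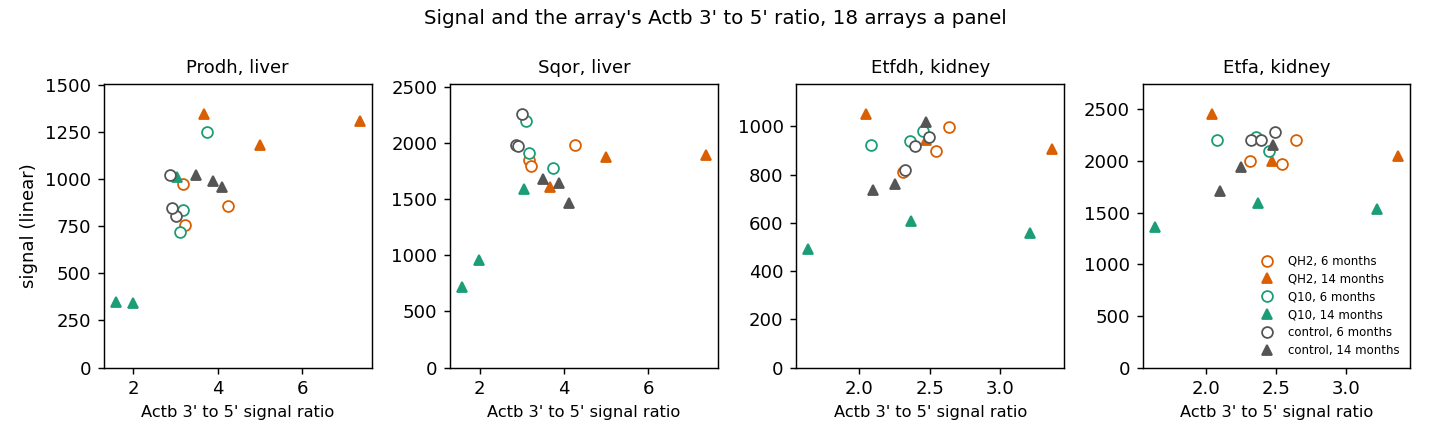
Signal of 4 member and tissue combinations (linear scale) against the Actb 3' to 5' ratio of the same array; each panel holds the 18 arrays of a tissue, coloured by diet, open at 6 months and filled at 14. The 2 low Q10 livers also had the lowest ratios of that tissue (1.59 and 1.98), while the 3 low Q10 kidneys for Etfdh spanned ratios from 1.64 to 3.22.

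In heart, Etfa at 14 months was 4085, 4526 and 4658 on QH2, 3987, 3704 and 4205 on Q10, and 4473, 4856 and 4619.6 on control. Every Q10 heart was below every control, but -0.23 ± 0.07 (SE) had an adjusted p of 0.225. Etfdh in heart was 3277, 3528 and 3395 on QH2, 3126, 2821 and 3048 on Q10, and 3309, 3471 and 3603 on control. All Q10 hearts lay below all others. Q10 against control was not called for Etfdh in heart either, at -0.21 ± 0.07 (adjusted p = 0.3). In heart, 0 of 27022 probe sets were called by limma at 14 months for either compound or between them, and for QH2 against control 0.0111% were called in brain. Brain members were not called either, and their differences between QH2 and Q10 lay between -0.34 and 0.20, none with an unadjusted p under 0.05.

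**Figure D4:**
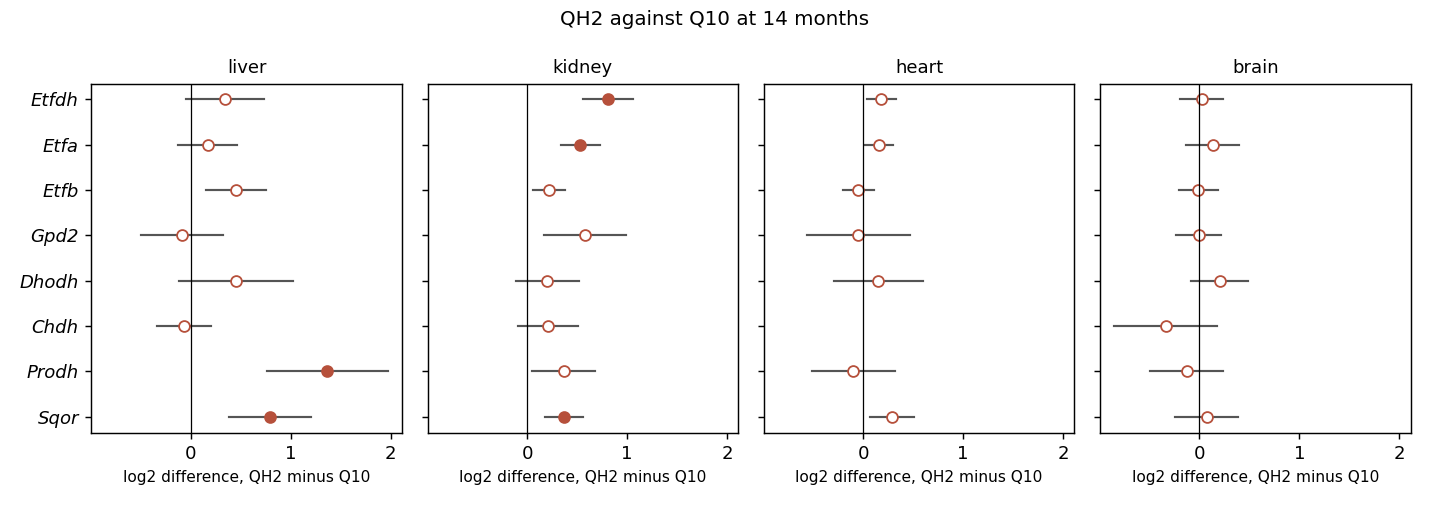
QH2 minus Q10 at 14 months on the log2 scale for each member and tissue; points are estimates, bars 95% intervals, filled points were called. Etfdh, Etfa and Sqor were called in kidney and Prodh and Sqor in liver; Chdh was not tested in heart.

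The partner pathways of the members were counted in the same comparisons from lists of 85 genes. Of all probe sets, 3.95% were called higher for QH2 against Q10 at 14 months in kidney and 4.78% in liver. For QH2 against Q10 in kidney at 14 months, 5 of 14 acyl-CoA dehydrogenases and related donors to the flavoprotein rose and 0 fell, Acads by 0.84 and Acad11 by 0.77. Of the glycerol phosphate and malate-aspartate shuttle genes 4 of 10 rose, led by Gpd1, the cytosolic partner of Gpd2, at 1.28 ± 0.19 (adjusted p = 0.00158, 1311 on QH2 against 547 on Q10). Of the complex II and III genes 6 of 13 rose, with Uqcrfs1 at 0.44 and Sdha at 0.31. Of the proline genes 3 of 7 rose, Aldh4a1 by 0.65, and Aldh18a1, which acts in proline synthesis, fell by 1.53. For choline and betaine 2 of 9 rose, for ubiquinone synthesis 2 of 12 (Coq9 by 0.56, Coq8a by 0.66), for sulfide 1 of 6 (Suox) and for pyrimidines 1 of 9 (Uck1). The adipocyte sums above did not overlap between QH2 and Q10 kidneys, and Ucp1, a marker of brown fat, was called at 6.57 (1319 on QH2 against 25.9 on Q10). Its part in these lists was not tested. The median log2 difference was 0.38 for the flavoprotein donors, 0.35 for the shuttles, -0.12 for pyrimidines, 0.20 for choline and betaine, 0.32 for proline, 0.37 for sulfide, 0.28 for complex II and III and 0.29 for ubiquinone synthesis, against 0.045 over all probe sets.

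In liver at 14 months QH2 against Q10 gave 5 of 6 sulfide genes higher, Ethe1 by 1.19, Suox by 1.02, Tst by 0.75 and Cth by 0.73. Ethe1 acts just after Sqor in sulfide oxidation. Among proline genes 4 of 6 were higher, Oat by 1.38, Prodh2 by 1.07 and Aldh4a1, which acts after Prodh, by 0.96. Of the donors to the flavoprotein 5 of 14 were higher, Ivd by 1.08 among them, of complex II and III 5 of 13, and of ubiquinone synthesis 4 of 12. The shuttle list gave 2 of 10, choline and betaine 1 of 10 and pyrimidines 1 of 9, and no gene of these 8 lists was lower. Median log2 differences here were 0.51 for the flavoprotein donors, 0.44 for the shuttles, -0.19 for pyrimidines, 0.27 for choline and betaine, 0.99 for proline, 0.89 for sulfide, 0.43 for complex II and III and 0.60 for ubiquinone synthesis, against 0.083 over all probe sets. For Q10 against control in liver the sulfide list had 4 of 6 lower (Suox by -1.04, Ethe1 by -1.22, Cth by -0.75, Cbs by -0.73). In the other lists Gpd1 (-0.93), Got1 (-0.998), Acads (-0.75), Gnmt (-0.62), Oat (-1.36), Uqcrq (-0.55) and Pdss2 (-0.96) were lower, and Aldh18a1 was higher by 3.00 (adjusted p = 0.041). In kidney Aldh7a1 (-0.44), Acad11 (-0.67), Aldh4a1 (-0.52), Pycrl (-0.56) and Coq9 (-0.44) were the list genes called. The liver macrophage sums and Actb ratios above move with these lists as well.

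Duration, compared over 9 arrays against 9, had members called in each tissue and in both directions. After 14 months, with the 3 diets averaged, 4 members were lower in liver and 0 higher, 3 were lower and 1 higher in kidney, 1 was lower and 1 higher in heart, and 5 were higher and 0 lower in brain. Of all probe sets tested 20.6%, 40.4%, 18.8% and 56% were called in liver, kidney, heart and brain. Split by direction, 11.1% were higher and 9.51% lower in liver, 19.4% were higher and 21% lower in kidney, 9.41% were higher and 9.36% lower in heart, 28.3% were higher and 27.6% lower in brain. Age, time on the diet and the handling of the arrays cannot be told apart in this comparison. Of the macrophage markers 2, 5, 2 and 6 of 10 were higher at 14 months in liver, kidney, heart and brain. In the same order 0, 0, 1 and 1 were lower. Of the lymphocyte markers 4 of 6 in liver and 6 of 7 in kidney were higher. Diets differed in the median macrophage sums at 14 and 6 months. In liver they were 11940 and 2018 on Q10, 1788 and 1790 on control, 1244 and 1796 on QH2. In heart they were 3864 and 2528 on Q10, 2384 and 2719 on control, 2359 and 2706 on QH2. In kidney they were 4984 and 2523 on Q10, 3702 and 2071 on control, 2549 and 2463 on QH2. Liver lymphocyte sums were 1936 and 136 on Q10, 176 and 176 on control, 174 and 122 on QH2. The part of immune cells in the differences below was not tested.

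In brain, Sqor ran from 100.2 to 138 with a median of 119 at 14 months, and from 55.2 to 86.6 with a median of 70.8 at 6 months (9 arrays each). The durations did not overlap, and 14 months was higher by 0.67 ± 0.09 (SE, adjusted p = 3.12e-06, 1.59-fold). The difference was 0.87 on QH2, 0.60 on Q10 and 0.53 on control. Etfa ran from 346 to 475 at 14 months, median 408, and from 238 to 361 at 6 months, median 269, higher by 0.53 ± 0.07 (adjusted p = 6.79e-06) with slight overlap. Etfdh and Etfb were higher by 0.22 ± 0.06 and 0.20 ± 0.05 (adjusted p = 0.00333 and 0.00413). Chdh, at medians of 83.1 after 14 and 57.9 after 6 months, was higher by 0.39 ± 0.14 (adjusted p = 0.0267), a call lost without Q10 6-month replicate 3 or control 14-month replicate 1 (0.054 and 0.0526). Etfdh and Chdh were not called with the Actb ratio as covariate (adjusted p = 0.239 and 0.548). That ratio averaged 1.74, 1.76 and 1.69 in brain at 14 months on QH2, Q10 and control, and 1.85, 1.83 and 1.84 at 6 months.

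In liver Etfdh, Etfa, Sqor and Chdh were lower at 14 months, and Etfb was not called (-0.15 ± 0.08, adjusted p = 0.20, with 0.059 on QH2, -0.52 on Q10 and -0.0014 on control). Etfa ran from 1209 to 1918 at 14 months, median 1738, and from 2022 to 2517 at 6 months, median 2183, with no overlap (-0.39 ± 0.08, adjusted p = 0.00284). Etfdh ran from 519 to 1109 at 14 months, median 836, and from 961 to 1606 at 6 months, median 1155 (-0.48 ± 0.11, adjusted p = 0.00477). Its difference was -0.26 on QH2, -0.91 on Q10 and -0.25 on control. Sqor, with medians of 1606 and 1971 at 14 and 6 months, differed by -0.46 ± 0.11 (adjusted p = 0.00816), made up of -0.07 on QH2, -0.92 on Q10 and -0.37 on control. Chdh was lower by -0.26 ± 0.07 (adjusted p = 0.0199). None of these 4 was called on the signals as deposited, where each kept its sign. Gpd2 was not called on its brightest liver probe set, while 1428323_at was lower by -0.58 (adjusted p = 0.00321).

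In kidney Gpd2 was higher at 14 months, from 316 to 665 with a median of 406, against 256 to 421 with a median of 326 at 6 months (0.46 ± 0.11, adjusted p = 0.00352). It was positive on each diet, at 0.72 on QH2, 0.10 on Q10 and 0.57 on control, and the probe set 1452741_s_at was also called (0.47). The 3 adipocyte markers tested in kidney summed to 7699 to 9137 on QH2, 655 to 5049 on Q10 and 1770 to 7749 on control at 14 months. At 6 months they summed to 779 to 3555, 1226 to 1572 and 854 to 3742 in the same diets. The part of fat in the Gpd2 difference was not tested. Etfdh (-0.26 ± 0.07), Etfa (-0.23 ± 0.05) and Sqor (-0.19 ± 0.05) were lower at 14 months, but turned to 0.044, 0.044 and 0.13 on the signals as deposited, where the median of all probe sets was 0.40. By diet, the kidney difference was 0.10 on QH2, -0.78 on Q10 and -0.11 on control for Etfdh, and 0.07, -0.54 and -0.21 for Etfa.

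In heart Etfdh was lower at 14 months, from 2821 to 3603 against 3466 to 3954 at 6 months (-0.18 ± 0.04, adjusted p = 0.00364), but higher by 0.58 as deposited, where all probe sets had a median of 0.80. Prodh was higher, with medians of 134 at 14 and 102 at 6 months (0.41 ± 0.12, adjusted p = 0.0169). Gpd2 in heart was not called on 1428323_at, its brightest, and was called higher on 1417434_at (0.44, adjusted p = 0.00331).

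**Figure D5:**
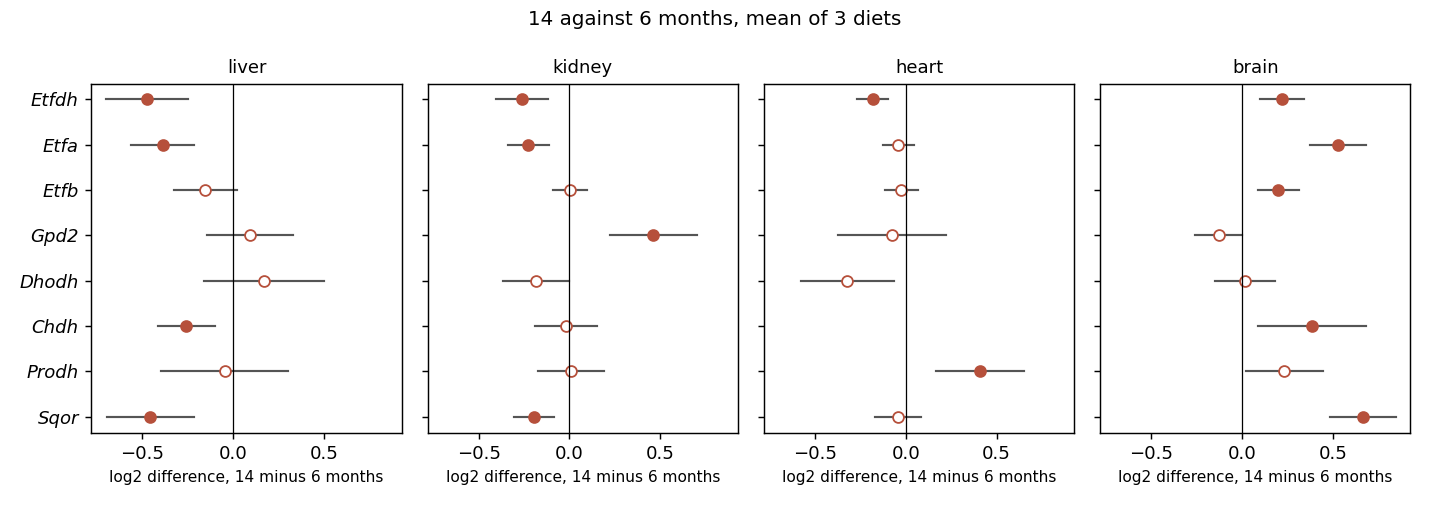
Difference between 14 and 6 months on the log2 scale, averaged over 3 diets, for each member and tissue; points are estimates, bars 95% intervals, filled points were called (9 arrays at each duration). Etfdh and Etfa lay below 0 in liver and kidney and above 0 in brain; Gpd2 in kidney and Prodh in heart were higher.

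Genes around the members moved with duration as follows. In brain 9 of 13 complex II and III genes were higher at 14 months and 1 was lower, with Uqcrh at 0.38 and Uqcrc2 at 0.31, and 5 of 6 sulfide genes were higher, Mpst by 0.76 and Suox by 0.40. In liver 7 of 13 complex II and III genes were lower, Sdha by -0.60 and Sdhd by -0.58, as were 7 of 14 donors to the flavoprotein, 5 of 12 ubiquinone synthesis genes and 3 of 6 sulfide genes, while Mpst rose by 1.95. In kidney 9 of 14 donors were lower, Acads by -1.03 and Acad8 by -0.62, and so were 4 of 6 sulfide genes (Ethe1 by -0.99) and 5 of 7 proline genes (Aldh4a1 by -0.45), with Aldh18a1 higher by 1.48. In heart 4 complex II and III genes were higher and 4 lower of 13, Sdhc by 0.39 and Sdha by -0.36.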

How the data were processed

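Total RNA of liver, kidney, heart and brain was measured on 72 arrays in 24 groups of 3, which were grouped by the tissue, diet and duration in the labels. The values are intensities, 1 linear signal per probe set and array, deposited by the authors. GCOS is named in the submitters' processing notes, without settings. No label ties arrays to single mice, so p values measure the spread between arrays.

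The 64 control probe sets were left out of 45101. The arrays of a tissue were quantile normalised (all 72 together for tissue levels), 1 was added and log2 taken. Probe sets above the 40th percentile of the mean log2 signal were tested, 27022 in each fit. A model with 1 mean per group was fitted with limma 3.58.1 in R 4.3.3, with an intensity trend, for 11 comparisons in each tissue and 6 tissue pairs. Adjusted p values are from limma with Benjamini-Hochberg adjustment over all probe sets tested in a comparison. Exact permutation of 3 against 3 arrays cannot go below p = 0.1. The number of arrays limits the precision.

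For each gene the brightest probe set that was tested and had a single symbol was used. Of the probe sets 34945 had 1 symbol, 932 several and 9160 none, and 34741 symbols were updated through Entrez numbers. Named genes were all members, the 3 genes most correlated with each over the 24 group means, and up to 4 list genes that passed. The members and the lists were chosen with earlier results of these data known. Replicate numbers showed no clear pairing of the arrays: deviations of same-numbered arrays correlated at -0.012 to 0.010 on average within tissues and 0.017 between them. Single pairs between tissues ran from -0.121 to 0.256, and such averages cannot tell whether tissues came from the same mice. The steps were tested on simulated data. Alternatives were other normalisations, offsets, filters, array weights, the Actb ratio, fewer arrays and a replicate block.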

Additional observations from a re-analysis of the deposited data

How the results depend on the processing

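The count of members called, summed over the 4 tissues, stayed within 1.5 times its value for duration (15, between 14 and 16 leaving out 1 array) and for the tissue pairs, and not for diet. For Q10 against control at 14 months, 2 were called, and the count was 0 on signals as deposited, 1 with 72 arrays normalised together, 0 without the intensity trend, 6 with array weights, 1 with the Actb ratio as covariate, 0 with only the groups compared, 1 without liver Q10 replicates 2 and 3 of 14 months (set apart by earlier results of these data, the lone array left being assumed to vary like the other groups), 1 without the kidney arrays of lowest and highest Actb ratio (chosen after seeing the data), and 1 to 4 leaving out 1 array. For QH2 against Q10 at 14 months, 5 were called, and the counts in the same settings were 0 as deposited, 3 without the trend, 10 with array weights, 3 with the ratio, 0 with only the groups compared, 3 without the 2 liver arrays, and 3 to 7 leaving out 1 array. Q10 averaged over durations gave 0, with 2 under array weights and 0 to 2 leaving out 1 array; the Q10 effect at 14 minus 6 months gave 0, with 3 and 0 to 3. With the replicate number as a block 6 members were called for QH2 against Q10 at 14 months, and no other count changed. Directions turned in 18 cases. As deposited, 14 against 6 months came to 0.130 for Sqor, 0.0441 for Etfa and 0.0442 for Etfdh in kidney, 0.537 for Dhodh and 0.582 for Etfdh in heart, and 0.397 for Gpd2 in brain; liver against kidney to -0.0448 for Etfa, -0.302 for Gpd2 and -0.341 for Prodh; Dhodh to -0.571 for kidney against brain and -0.394 for heart against brain, and Prodh to -0.140 for heart against brain. With arrays scaled to one trimmed mean Etfb was 0.0624 for liver against kidney and Dhodh -0.200 for kidney against brain. With the ratio Prodh was -0.169 for liver against kidney. Without replicate 1, Dhodh was -0.00395 for kidney against brain, and without replicate 2, 0.0362 for liver against brain; leaving out 1 replicate number in turn these ran from -0.00395 to 0.111 and from -0.127 to 0.0362. Liver Prodh for Q10 against control was 0.0272 without the 2 arrays. As deposited, 96.8% of kidney, 99.8% of heart, 88.8% of brain and 93.5% of liver calls for duration were higher at 14 months, against 48.0%, 50.1%, 50.6% and 53.8% after normalisation; for QH2 against Q10 at 14 months it was 3.85% of liver and 22.2% of kidney calls, against 49.8% and 66.3%.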
